A study of Mus musculus with 12 samples.

Results

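Bile acid synthesis and the Fxr axis were examined through 10 of the 52636 genes in the liver count tables. These were the hydroxylases Cyp7a1, Cyp8b1, Cyp27a1 and Cyp7b1, the conjugating enzyme Baat, the transporters Slc10a1 (Ntcp) and Abcb11 (Bsep), the bile acid receptor Nr1h4 (Fxr), its target Nr0b2 (Shp) and the growth factor receptor Fgfr4. They were chosen by name for their known roles in this pathway, but with earlier results of these data known. The same holds for the other gene lists, so shares of all genes set beside their counts are no independent test. Each symbol matched 1 gene, and all 10 passed the filter on low counts (12 counts or more on average over the libraries).

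Hepatocytes make bile acids from cholesterol by a classic route that begins with Cyp7a1 and an alternative route that begins with Cyp27a1 and continues through Cyp7b1. Cyp8b1 adds the hydroxyl group that makes cholic acid, Baat joins bile acids to taurine, Abcb11 pumps them into bile and Slc10a1 takes them back up from the blood. Bile acids activate Fxr, which induces Shp in the liver and, in the intestine, Fgf15, a hormone that acts through Fgfr4 and its co-receptor Klb, and both arms are known to hold down Cyp7a1 and Cyp8b1.

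Libraries were made from the livers of C57Bl/6J male offspring aged 16 weeks, 6 in VDD-F1 and 6 in VDS-F1, 1 library for each, to ask what maternal vitamin D deficiency leaves behind in the adult liver. VDD-F1 mothers ate a diet without vitamin D, with calcium gluconate added, from before mating until delivery, and VDS-F1 mothers ate the matched diet with vitamin D. All mothers were on the sufficient diet after delivery and all offspring after weaning, so none of the mice was deficient by diet when the liver was taken. RNA came from the left lateral lobe, and the labels do not give litters, so p-values measure the spread between these mice, some of which may share a mother.

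Libraries held 25897868 to 36403413 fragments, of which 14275793 to 20815066 were counted on genes. VDS6 stood apart with 11.1% of its fragments outside annotated genes. The study's histology panel shows a liver weight for 7 of the mice, which are VDD4, VDD5 and VDD6 and, in VDS-F1, mice 3 to 6, and for none of the other 5, and the diets were also compared within each set. What else separates the sets is not stated. Defining markers of hepatocytes (albumin and 8 other genes) summed to between 96537 and 128429 CPM (counts scaled to the normalised library size), so that the markers of the labelled tissue were present throughout. RNA from whole tissue was measured, so fewer cells of a type and less RNA per cell cannot be told apart.

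None of the 10 genes was a DEG between VDD-F1 and VDS-F1 livers, where a DEG needs a Benjamini-Hochberg adjusted p-value under 0.05 in edgeR's quasi-likelihood test over 12453 genes, and a log2-fold change beyond 1 in either direction. The same thresholds called 0.0402% of all genes, 5 in number. Among the 10 genes, 4 had an unadjusted p-value under 0.05 (15.8% of all genes did), and all 4 were lower in VDD-F1 (6.29% of all genes). These were Cyp7b1, Cyp27a1, Baat and Abcb11. The fitted log2-fold change was below 0 for 8 of the 10, against 49.2% of all genes, and its median over the 10 was -0.31, against 0.0041 over all genes. In 0 of the 10 genes did the CPM of the groups not overlap, which was the case for 1.18% of all genes. DESeq2's Wald test and voom with sample quality weights each called 1 of the 10, Cyp7b1, while they called 2.03% and 2.02% of all genes. With voom 8 of the 10 had an unadjusted p under 0.05, where 22.8% of all genes did. Without VDS6, 0 of the 10 were DEGs and 3 had an unadjusted p under 0.05 by edgeR, and without VDD2, the lowest VDD-F1 mouse for several of these genes, 0 were DEGs and 4 had.

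**Figure D1:**
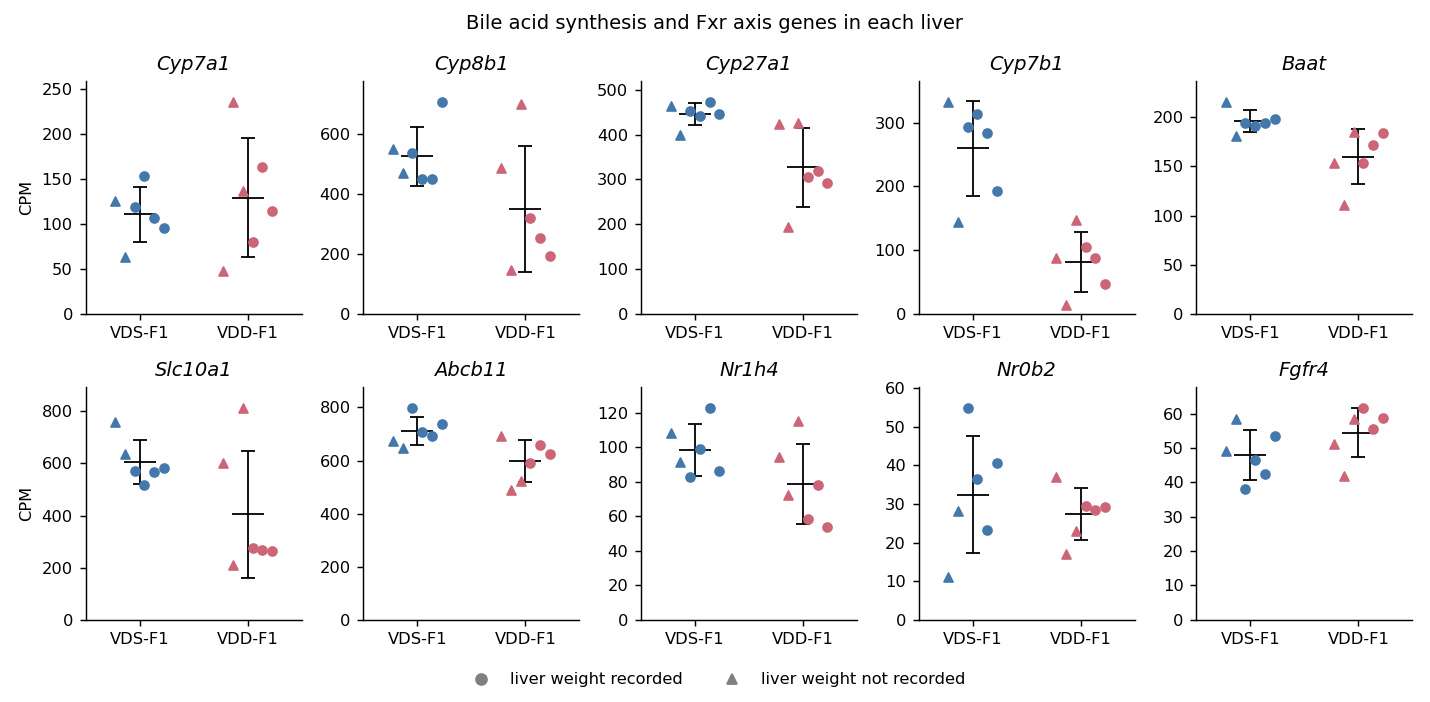
CPM of the 10 genes in each liver, with 1 panel per gene, VDS-F1 in blue and VDD-F1 in red, circles for mice with and triangles for mice without a recorded liver weight, and black bars for the mean and SD of 6 mice. Cyp7b1 spans 13.3 to 148 CPM in VDD-F1 and 144 to 332 in VDS-F1, so the groups meet at 1 mouse each, while the groups of Cyp7a1 and Nr0b2 lie over each other.

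Cyp7b1 (chr3:18071950-18243338, minus strand, coordinates here and for the other genes on GRCm38) had the largest difference of the 10. It encodes the oxysterol 7-alpha-hydroxylase of the alternative route and is expressed more in male than in female mouse liver. In the VDD-F1 mice 1 to 6 it had 87.6, 13.3, 148, 105, 87.3 and 46.6 CPM, and in the VDS-F1 mice 1 to 6 it had 332, 144, 292, 313, 283 and 193. Only VDD3 reached into the VDS-F1 range, where it stood just above VDS2. The log2-fold change was -1.68 (SE 0.41), with an adjusted p of 0.0918, and edgeR ranked Cyp7b1 number 132 of the 12453 genes by p-value. DESeq2 gave an adjusted p of 0.0144 and voom of 0.0139. Without VDD3 edgeR gave a log2-fold change of -1.94 and an adjusted p of 0.0428, and the same call was made with all 12 libraries by DESeq2, by voom and by edgeR with no filter (adjusted p = 0.0426). Without VDD2, the lowest mouse, the log2-fold change was -1.46.

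Cyp27a1 (chr1:74713574-74737892, plus strand), the mitochondrial sterol 27-hydroxylase one step before Cyp7b1, had 423, 193, 427, 306, 318 and 293 CPM in VDD1 to VDD6. The VDS-F1 mice lay close together, between 400 and 473 with a median of 450. VDD1 and VDD3 were inside that range and the other 4 VDD-F1 mice were below it. The log2-fold change was -0.45 (SE 0.16, unadjusted p = 0.0119, adjusted p = 0.188, edgeR).

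Cyp8b1 (chr9:121914356-121916305, minus strand), the sterol 12-alpha-hydroxylase, had 487, 145, 703, 320, 254 and 194 CPM in VDD1 to VDD6. In VDS1 to VDS6 it had 552, 470, 538, 450, 449 and 708. The 4 mice that were low for Cyp27a1 were below every VDS-F1 mouse here too, and VDD1 and VDD3 were again inside the range. The VDD-F1 mean was 351 ± 210 (SD, n = 6) and the VDS-F1 mean 528 ± 98.8 (SD, n = 6), with a log2-fold change of -0.59 (SE 0.31, adjusted p = 0.374, edgeR). It was -0.91 without VDD3 and -0.43 without VDD2.

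Cyp7a1 (chr4:6265612-6275633, minus strand), the first and rate-limiting enzyme of the classic route, varied from mouse to mouse in both groups. VDD1 to VDD6 had 47.0, 235, 136, 79.6, 163 and 114 CPM, and VDS1 to VDS6 had 126, 63.3, 118, 153, 107 and 95.5. VDD2, the mouse with the least Cyp7b1, had the most Cyp7a1 of all 12 mice, and VDD1 had the least. The log2-fold change was 0.23 (SE 0.31, adjusted p = 0.769, edgeR), and without VDD2 it was -0.033.

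The 4 hydroxylases were also compared per kilobase of exon (FPKM, the CPM divided by the exon length in kilobases), the scale on which levels of different genes can be set side by side. In VDS-F1 livers the median level was 258 FPKM for Cyp8b1, 207 for Cyp27a1, 133 for Cyp7b1 and 27.0 for Cyp7a1. In VDD-F1 livers the medians were 147, 144, 40.4 and 29.9 FPKM in the same order. The ratio of the Cyp7a1 to the Cyp7b1 level was between 0.196 and 0.257 in the 6 VDS-F1 livers and was 0.279 in VDD1, 9.21 in VDD2, 0.478 in VDD3, 0.395 in VDD4, 0.969 in VDD5 and 1.27 in VDD6. All 6 VDD-F1 ratios were above all 6 VDS-F1 ratios. The ratio of the Cyp7b1 to the Cyp27a1 level was 0.0688 to 0.347 in VDD-F1 and 0.362 to 0.717 in VDS-F1, again with no overlap. Both ratios contain Cyp7b1, were formed after its values had been seen and are given without a test. How often other pairs of genes separate the groups was not counted. The ratio of the Cyp8b1 to the Cyp7a1 level overlapped, at 1.32 to 22.2 in VDD-F1 and 6.30 to 15.9 in VDS-F1.

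**Figure D2:**
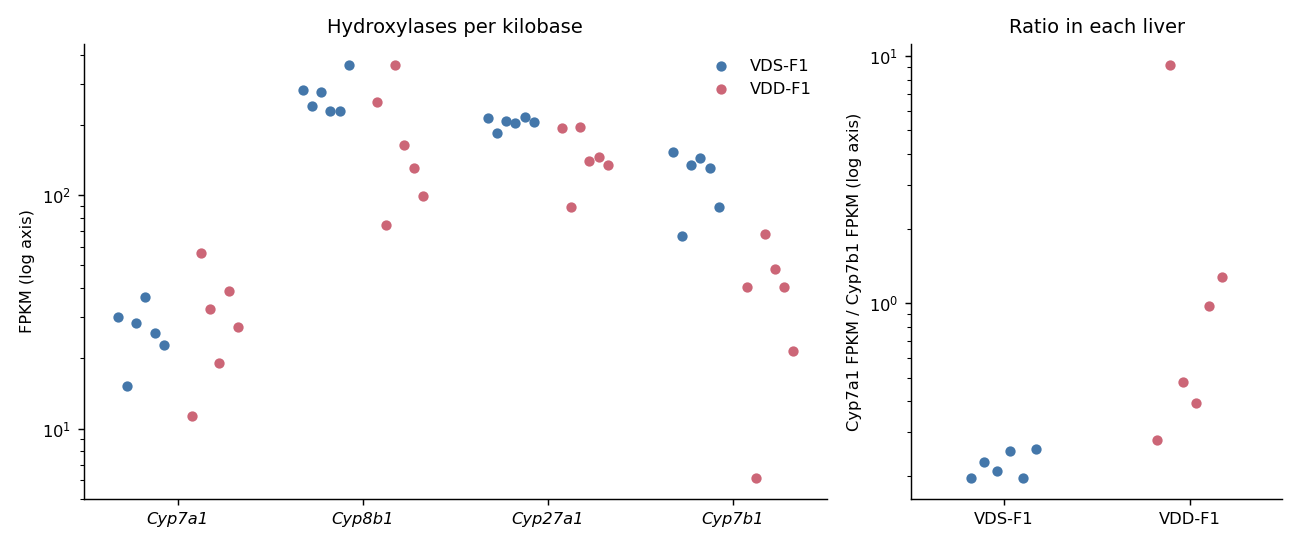
Left, FPKM of the 4 hydroxylases in each liver on a log axis, and right, the Cyp7a1 FPKM divided by the Cyp7b1 FPKM of the same liver on a log axis, VDS-F1 in blue and VDD-F1 in red. The VDS-F1 ratios lie between 0.196 and 0.257 and the VDD-F1 ratios between 0.279 and 9.21, the highest being VDD2.

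Baat (chr4:49489422-49506557, minus strand), which conjugates bile acids, had 153, 111, 185, 153, 172 and 184 CPM in VDD1 to VDD6, and 181 to 216 with a median of 194 in VDS-F1. VDD3 and VDD6 lay in the VDS-F1 range and the others below it. Its log2-fold change was -0.29 (SE 0.11, unadjusted p = 0.0200, adjusted p = 0.229, edgeR).

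Slc10a1 (chr12:80953183-80968705, minus strand), the sodium-dependent uptake transporter of the sinusoidal membrane, lay in separate ranges within VDD-F1. VDD2, VDD4, VDD5 and VDD6 had 210, 274, 268 and 265 CPM, and VDD1 and VDD3 had 603 and 812. The VDS-F1 mice had 759, 636, 569, 517, 567 and 581. The 4 low mice had at most 274 CPM, against 517 in the lowest VDS-F1 mouse, while VDD3 was the highest of all 12. The log2-fold change over all mice was -0.58 (unadjusted p = 0.0690, adjusted p = 0.358, edgeR). It was -0.90 without VDD3 and -0.45 without VDD2.

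Abcb11 (chr2:69238282-69342616, minus strand), the bile salt export pump of the canalicular membrane, differed less. The VDD-F1 mice had 694, 489, 524, 592, 660 and 626 CPM and the VDS-F1 mice 675, 646, 797, 707, 694 and 739. VDD1 and VDD5 were within the VDS-F1 range. The antisense gene Gm13613 overlaps Abcb11 with 7 counts over all libraries, and a small nuclear RNA gene inside Cyp7b1 had 15, so neither adds measurably to these levels. The log2-fold change was -0.25 (SE 0.10, unadjusted p = 0.0278, adjusted p = 0.256, edgeR).

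Nr1h4 (chr10:89454234-89533585, minus strand) encodes Fxr, the nuclear receptor that senses bile acids. It had 94.2, 72.7, 115, 58.2, 78.1 and 53.7 CPM in VDD1 to VDD6 and 82.8 to 123 in VDS-F1, with a median of 95.3. The log2-fold change was -0.33 (adjusted p = 0.370, edgeR), and the same 4 VDD-F1 mice as for Cyp8b1 and Slc10a1 were below every VDS-F1 mouse.

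Nr0b2 (chr4:133553376-133556536, plus strand) encodes Shp, a co-repressor without a DNA-binding domain that Fxr induces. In VDD-F1 it had 36.9, 17.0, 22.9, 29.5, 28.5 and 29.1 CPM, and in VDS-F1 it ran from 11.1 in VDS1 to 54.7 in VDS3, with 28.0, 36.5, 23.3 and 40.6 in the others. The VDS-F1 range held every VDD-F1 mouse. The log2-fold change was -0.24 (adjusted p = 0.731, edgeR), and it was -0.42 without VDS1 and -0.029 without VDS3.

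Fgfr4 (chr13:55152640-55168759, plus strand), the hepatic receptor for Fgf15, had 41.7 to 61.5 CPM in VDD-F1 (median 56.8) and 38.1 to 58.3 in VDS-F1 (median 47.9), and the groups overlapped. Its log2-fold change was 0.18 (adjusted p = 0.475, edgeR). Fgfr4 and Cyp7a1 were the 2 genes of the 10 with a positive fitted difference.

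Read by mouse, the lower values gathered in 4 of the 6 VDD-F1 livers. Of the 10 genes, 7 were below the lowest VDS-F1 mouse in VDD2 and in VDD4, 6 in VDD5 and in VDD6, 3 in VDD1 and 1 in VDD3. Of all genes tested, 26% were below the lowest VDS-F1 mouse in VDD2, 19.2% in VDD4, 18.7% in VDD5, 17% in VDD6, 14.4% in VDD1 and 16.7% in VDD3. Above the highest VDS-F1 mouse were 2 of the 10 genes in VDD3, 1 in each of VDD2, VDD4, VDD5 and VDD6 and 0 in VDD1. Of all genes tested, 18.4% were above it in VDD3, 25.2% in VDD2, 18.7% in VDD4, 19.6% in VDD5, 20.6% in VDD6 and 14.9% in VDD1. The median deviation of the 10 genes from the VDS-F1 mean was -0.79 on the log2 scale in VDD2, -0.48 in VDD4, -0.25 in VDD5, -0.39 in VDD6, -0.063 in VDD1 and 0.088 in VDD3. Cyp7b1 was below the VDS-F1 mean in all 6.

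**Figure D3:**
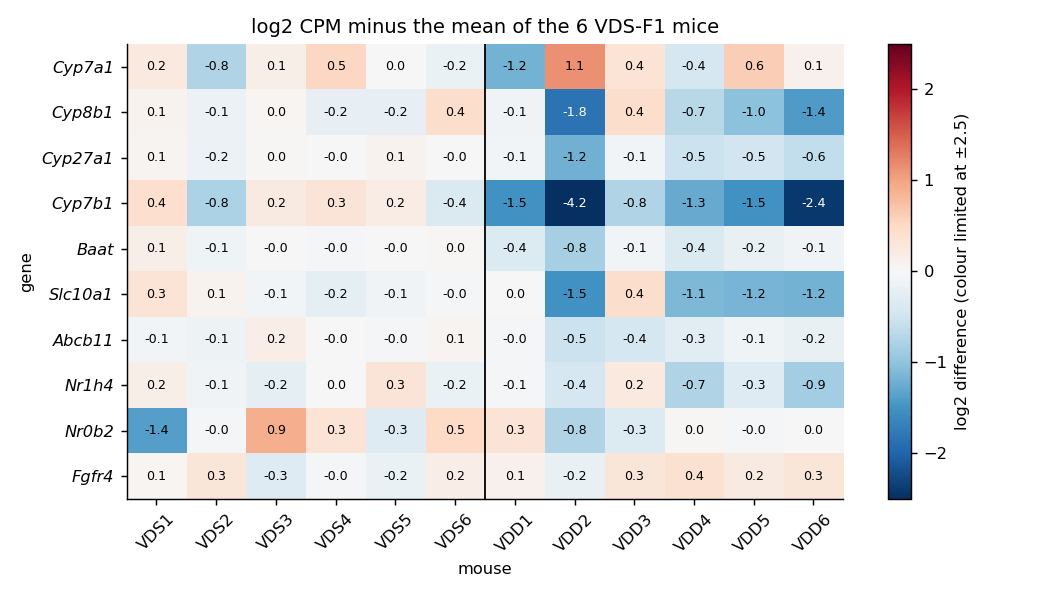
Heat map of the log2 CPM of each gene (vertical axis) in each mouse (horizontal axis) minus the mean of the 6 VDS-F1 mice, blue for lower and red for higher, colours limited at 2.5. Cyp7b1 is blue in all 6 VDD-F1 mice, and Cyp8b1 and Slc10a1 are blue in VDD2 and VDD4 to VDD6 and near or above the mean in VDD1 and VDD3.

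Across the 12 livers the log2 CPM of Cyp8b1 and Slc10a1 had a Pearson r of 0.93, Cyp27a1 and Cyp7b1 of 0.93, and Cyp8b1 and Cyp27a1 of 0.91. Cyp7a1 had a negative r with each of the other 9 genes, from -0.44 with Cyp27a1 to -0.037 with Nr1h4. These values describe 12 libraries that fall into groups and that share depth and normalisation, and they carry no test. VDD2 is the extreme mouse for several of these genes.

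The genes most like each of 4 members over the 12 libraries were sought among the 8622 genes averaging 100 or more counts. For Cyp7b1 they were Ces3a (r = 0.97), a liver carboxylesterase, Ganab (0.97), a glucosidase of the endoplasmic reticulum, and Ces3b (0.96). Ces3a and Ces3b are close relatives, and reads that map equally to both are counted for neither. For Cyp8b1 they were Mfn2 (0.95), which acts in mitochondrial fusion, Ephx2 (0.95), the soluble epoxide hydrolase, and Rnf123 (0.95). For Cyp7a1 they were Nrep (0.91), Sf3b3 (0.86) and Wdr43 (0.83), and for Nr0b2 they were Chdh (0.88), Uroc1 (0.87) and Clpb (0.87). The number of genes with an r above 0.8 was 218 for Cyp7b1 and 305 for Cyp8b1 but 9 for Cyp7a1 and 29 for Nr0b2.

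Within the 7 mice with a recorded liver weight, 3 of the 10 genes were DEGs, all lower in VDD-F1, where 4.33% of all genes were. Slc10a1 had a log2-fold change of -1.05 (SE 0.08, adjusted p = 1.09e-05), Cyp7b1 of -1.77 (SE 0.24, adjusted p = 0.0009) and Cyp8b1 of -1.06 (SE 0.19, adjusted p = 0.0041), by edgeR. Cyp27a1 fell by less than the fold threshold, with a log2-fold change of -0.57 and an adjusted p of 0.0008, and Nr1h4 likewise, with -0.62 and an adjusted p of 0.0264. Of all genes, 11% had an adjusted p under 0.05 in these mice. Of the 10, 8 had an unadjusted p under 0.05, against 25.6% of all genes. Here 3 VDD-F1 mice were compared with 4 VDS-F1 mice. The libraries of VDD4, VDD5 and VDD6 were more alike than any other pair in VDD-F1. Their counts differed by a chi-squared value per degree of freedom of 17.7 to 31.8, against 63.0 to 131 for the other VDD-F1 pairs. The SE in this set measures the spread among these mice and not that among all VDD-F1 mice. In the same comparison 6 of 15 clock genes were DEGs, and Nr1d1, a clock gene which represses other clock genes, was low in all 3 VDD-F1 and in 1 of the 4 VDS-F1 mice.

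Within the 5 mice without a recorded weight, 0 of the 10 genes passed, 0 had an unadjusted p under 0.05 and 0% of the 12541 genes tested were DEGs (edgeR, with 3.77% of all genes at an unadjusted p under 0.05). The log2-fold changes there were -1.53 for Cyp7b1, -0.41 for Baat, -0.37 for Slc10a1, -0.31 for Cyp27a1, -0.21 for Abcb11 and -0.20 for Cyp8b1. They were -0.094 for Fgfr4 and -0.091 for Nr1h4, and went the other way for Cyp7a1 (0.56) and Nr0b2 (0.39). This set holds VDD1, VDD2 and VDD3, which lay far apart, with 603, 210 and 812 CPM for Slc10a1.

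The diet difference was not shown to differ between the sets. In the interaction of diet and set, 0 of the 10 genes had an adjusted p under 0.05 by edgeR (0.0883% of all genes did) and 0 by DESeq2. Fgfr4 had the smallest interaction p, 0.0476 unadjusted and 0.550 adjusted by edgeR, with a log2-fold change of 0.38 in the recorded set and -0.094 in the other. When the sets themselves were compared with diet in the model, 0 of the 10 were DEGs (0.891% of all genes), and Slc10a1 was the 1 gene at an unadjusted p under 0.05 (13.9% of all genes). It was lower in the recorded set by a log2 difference of -0.69 (adjusted p = 0.208, edgeR).

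**Figure D4:**
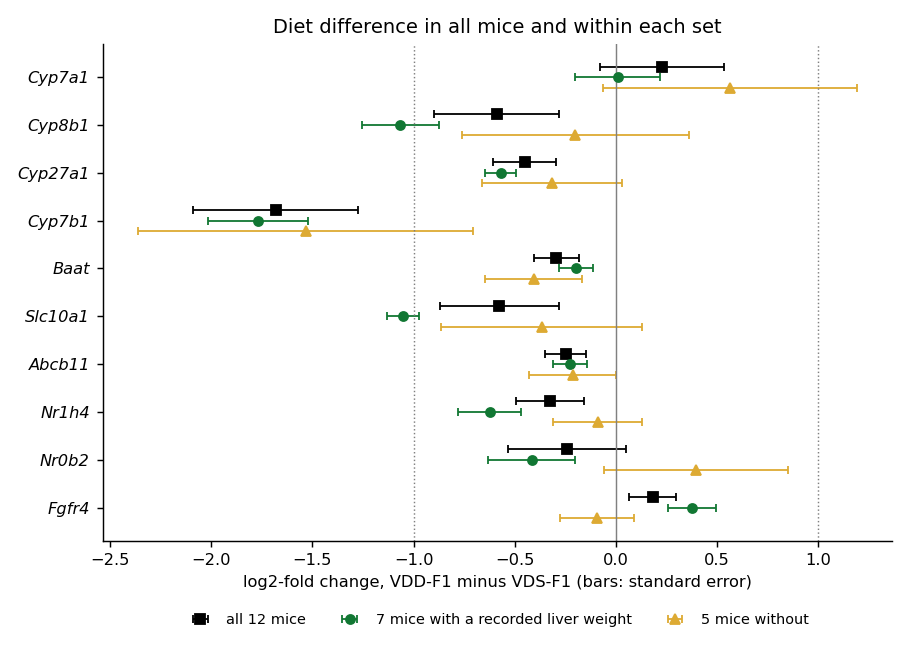
Fitted log2-fold change of VDD-F1 against VDS-F1 for the 10 genes (horizontal axis), in all 12 mice (black squares), in the 7 mice with a recorded liver weight (green circles) and in the 5 without (yellow triangles), with bars for 1 standard error and dotted lines at the fold threshold. Slc10a1 lies at -1.05 in the recorded set and at -0.37 in the other, and Cyp7b1 lies below -1.5 in both.

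Promoter sequence is shown for Cyp8b1 and Slc10a1, whose levels varied together over the mice, for Cyp27a1, which followed them, and for Nr0b2, which did not. RefSeq entries on GRCm38.p6 were found for 7 of the 10 genes (8 entries in all, 2 of them for Slc10a1). Cyp7a1, Cyp7b1 and Baat had none in the table. The 250 bases before each start were searched on both strands for 7 letter patterns, and each sequence is given 5′ to 3′ on the strand of its gene, with matches in capitals.
Cyp8b1, chr9:121916306-121916555, minus strand: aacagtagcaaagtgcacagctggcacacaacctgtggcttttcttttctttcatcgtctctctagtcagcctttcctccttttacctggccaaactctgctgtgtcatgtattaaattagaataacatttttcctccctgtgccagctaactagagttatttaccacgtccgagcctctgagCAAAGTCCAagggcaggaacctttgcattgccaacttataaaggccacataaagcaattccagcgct
Slc10a1, chr12:80968706-80968955, minus strand: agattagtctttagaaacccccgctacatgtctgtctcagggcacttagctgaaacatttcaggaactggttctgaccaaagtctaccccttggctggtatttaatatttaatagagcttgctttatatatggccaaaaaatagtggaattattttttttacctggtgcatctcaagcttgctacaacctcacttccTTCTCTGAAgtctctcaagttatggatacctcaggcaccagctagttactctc
Cyp27a1, chr1:74713285-74713534, plus strand: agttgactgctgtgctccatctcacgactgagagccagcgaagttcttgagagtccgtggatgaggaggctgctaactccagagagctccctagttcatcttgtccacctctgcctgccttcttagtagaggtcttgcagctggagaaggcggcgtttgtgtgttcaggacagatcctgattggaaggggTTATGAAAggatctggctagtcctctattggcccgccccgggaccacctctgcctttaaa
Nr0b2, chr4:133553126-133553375, plus strand: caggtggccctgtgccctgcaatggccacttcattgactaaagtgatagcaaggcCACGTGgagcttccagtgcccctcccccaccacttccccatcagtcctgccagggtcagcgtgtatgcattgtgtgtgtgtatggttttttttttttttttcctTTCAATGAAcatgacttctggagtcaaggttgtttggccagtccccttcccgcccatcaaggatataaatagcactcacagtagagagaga

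The Cyp8b1 promoter held CAAAGTCCA, a motif of Hnf4a, the nuclear receptor that drives many hepatocyte genes, 67 bases before the start. This pattern is in 0.384% of the 32851 promoters in the table. The Slc10a1 promoter held the Stat5 pattern TTCNNNGAA, the binding site of the factor that carries growth hormone signals in liver, 53 bases before the start, and Nr0b2 held it 91 bases before, while 7.02% of all promoters hold it. Nr0b2 also held the E-box CACGTG, the site of the Clock and Bmal1 pair, 195 bases before its start (6.02% of all promoters), and Cyp27a1 held TTATGNAA, the D-box of Dbp and its relatives, 60 bases before its start (3.07% of all promoters). The Fxr element (GGTCA and its reverse complement 1 base apart), the Lrh1 motif CAAGGTCA and the vitamin D response element (GGTCA repeated 3 bases apart) matched none of the 8 windows searched, and 0.0335%, 1.33% and 0.0670% of all promoters hold them. Only exact matches were counted, so a miss does not show that an element is absent. The Abcb11 window, for example, held ggccattgacc, 1 letter away from the Fxr pattern. A match is a run of letters and not a bound site, and factor binding was not measured in these livers.

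Factors named by these patterns were measured as RNA. Hnf4a had 529.6 to 732 CPM in VDD-F1 and 571 to 902 in VDS-F1, a log2-fold change of -0.29 (unadjusted p = 0.0446, adjusted p = 0.301, edgeR). Vdr, the vitamin D receptor, had a CPM of 0 in all 6 VDS-F1 livers and in VDD4 and VDD5, and at most 0.151 in the other VDD-F1 livers, so that it was not tested. The limit that a count of 0 allows (3 counts in a library) was 0.140 to 0.226 CPM over the 12 libraries, for counting error only, and each Vdr value was below the limit of its library.

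The rest of the synthesis pathway was read from 16 further enzymes, of which 15 passed the filter. None was a DEG (0.0402% of all genes were), 13 of the 15 had a log2-fold change below 0 (49.2% of all genes), and their median was -0.15. Akr1c14, a hydroxysteroid dehydrogenase that acts on the sterol ring, was the 1 enzyme at an unadjusted p under 0.05, and was lower (6.29% of all genes). Its level was 121 to 223 CPM in VDD-F1 and 199 to 302 in VDS-F1, with a log2-fold change of -0.36 (adjusted p = 0.258, edgeR). Slc27a5, which activates returning bile acids to their coenzyme A form, had 494 CPM in VDD2 and 723 to 887 in the other VDD-F1 livers, against 809 to 929 in VDS-F1.

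Of 18 other transporters of bile acids and of the canalicular membrane, 16 were tested, 0 were DEGs, and 5 were higher and 1 lower at an unadjusted p under 0.05 (9.55% and 6.29% of all genes). Their median log2-fold change was 0.10. Abcg5 and Abcg8, which together form the cholesterol exporter of the canalicular membrane, had the smallest p-values. Abcg5 had 55.5, 133, 52.3, 89.3, 78.1 and 112 CPM in VDD1 to VDD6 and 33.5 to 66.7 in VDS-F1, with 4 of the VDD-F1 mice above every VDS-F1 mouse. Its log2-fold change was 0.93 (SE 0.24, adjusted p = 0.0969, edgeR). Abcg8 had a log2-fold change of 0.71 (SE 0.19, adjusted p = 0.100, edgeR). The 4 mice above the VDS-F1 range of Abcg5 were VDD2, VDD4, VDD5 and VDD6, the mice that were lowest for Slc10a1.

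Abcc4 (Mrp4), which exports bile acids back to the blood, had 2.33 to 13.0 CPM in VDD-F1 and 2.24 to 4.22 in VDS-F1, with a log2-fold change of 1.08 (adjusted p = 0.167, edgeR). Slco1b2, a sinusoidal organic anion carrier named here after its values were seen, had 358 to 774 CPM in VDD-F1 and 607 to 899 in VDS-F1, with a log2-fold change of -0.51 (adjusted p = 0.229, edgeR). Abcb1a and Slc10a2 were the other 2 transporters higher at an unadjusted p under 0.05.

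Among 19 regulators and co-receptors, 17 were tested, 0 were DEGs, 1 was higher and 3 were lower at an unadjusted p under 0.05 (9.55% and 6.29% of all genes), and 15 of the 17 had a log2-fold change below 0 (49.2% of all genes), with a median of -0.12. Nr1i3 (Car), a xenobiotic receptor, had a log2-fold change of -0.83 (adjusted p = 0.273, edgeR). Nr1i3 had 11.6 to 15.2 CPM in VDD2 and VDD4 to VDD6, 56.7 in VDD1 and 32.6 in VDD3, against 32.8 to 61.3 in VDS-F1, so that the mice with at most 15.2 CPM were those low for Slc10a1. S1pr2, a receptor for conjugated bile acids, was higher, at 6.33 to 11.1 CPM in VDD-F1 and 2.92 to 6.71 in VDS-F1 (log2-fold change 0.70, adjusted p = 0.137, edgeR). Klb, the partner of Fgfr4, had 29.1 to 59.4 CPM in VDD-F1 and 40.2 to 54.3 in VDS-F1 (log2-fold change -0.12), and Nr5a2 (Lrh1), an activator of Cyp7a1 and Cyp8b1, had a log2-fold change of -0.12.

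In the mice with a recorded weight, 5 genes of these 3 lists were DEGs. They were Nr1i3 (log2-fold change -1.68), Abcg5 (1.13), Slc10a2 (1.22), Abcc4 (1.57) and Cyp46a1, which was named after its values were seen. Cyp46a1 had counts of 11, 6 and 13 in VDD4 to VDD6 and 30 to 39 in VDS3 to VDS6. It passed the filter there only through the VDS-F1 livers, so its call carries no weight. In this set 4.33% of all genes were DEGs.

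The intestinal arm of the axis was not visible in liver RNA. Fgf15 and Fabp6, the ileal bile acid-binding protein, had 0 counts in all 12 libraries, under the same limit. Slc10a2, the ileal uptake transporter that bile duct cells also carry, had 17.4 to 46.1 CPM in VDD-F1 and 11.9 to 36.6 in VDS-F1, a log2-fold change of 0.69 (adjusted p = 0.269, edgeR). Markers of bile duct cells (7 genes, 6 tested) summed to 44.6 to 134 CPM in VDD-F1 and 47.1 to 79.2 in VDS-F1, with 3 of the 6 higher at an unadjusted p under 0.05 (9.55% of all genes). The part of bile duct cells in the Slc10a2 values was not tested.

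Cyp7b1 also belongs to the genes that are expressed more in male than in female mouse liver. Of 14 such genes, all were tested, 0 were DEGs by edgeR, and 5 were lower and 0 higher at an unadjusted p under 0.05 (6.29% and 9.55% of all genes), with a median log2-fold change of -0.53. Of the 14, DESeq2 called 1, voom called 5 and edgeR called 5 in the mice with a recorded weight, where 2.03%, 2.02% and 4.33% of all genes were called. Cyp7b1 is counted in each of these, and it was the 1 gene that DESeq2 called. Besides Cyp7b1 the genes with the smallest p over all mice were Hsd3b5, a male-biased steroid dehydrogenase (log2-fold change -1.73, adjusted p = 0.125, edgeR) and Nudt7 (-0.56, adjusted p = 0.134). Hsd3b5 was lowest in VDD2, at 2.56 CPM, the mouse with the least Cyp7b1. It had 38.7 to 112 CPM in the other VDD-F1 livers and 154 to 219.9 in VDS-F1. Of 16 genes expressed more in female liver, 6 passed the filter. Cyp2a4 passed it only through the VDD-F1 livers where it was high, so no count of directions is given for this list and no test for that gene. Cd36, a fatty acid transporter, had 63.0 to 152 CPM in VDD-F1 and 33.7 to 65.0 in VDS-F1 (log2-fold change 0.90, adjusted p = 0.0947, edgeR). Cyp2a4, a steroid hydroxylase, had 40.4, 36.2, 26.6 and 25.2 CPM in VDD2, VDD4, VDD5 and VDD6, at most 0.126 in VDD1 and VDD3 and at most 0.416 in VDS-F1. Reads that map equally to Cyp2a4 and its near-identical relative Cyp2a5 are counted for neither, so the level of Cyp2a4 is uncertain. The livers with Cyp2a4 were the 4 with low Slc10a1 and Cyp8b1.

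Markers of other cell types were read in the same libraries, where 9.55% of all genes were higher and 6.29% lower at an unadjusted p under 0.05. Stellate markers (8 genes) summed to 324 to 937 CPM in VDD-F1 and 305 to 470 in VDS-F1, with 4 of 8 higher at an unadjusted p under 0.05, and the sums of VDD2 (937), VDD4 (604), VDD5 (544) and VDD6 (499.5) were above every VDS-F1 mouse, while VDD1 (324) and VDD3 (467) were not. DESeq2, voom and edgeR in the mice with a recorded weight each called 2 of the 8 (2.03%, 2.02% and 4.33% of all genes). VDD2 and VDD4 to VDD6 are the 4 livers with low Slc10a1 and Cyp8b1. Part of these stellate sums is collagen RNA. In VDD2, VDD4, VDD5 and VDD6 Col1a1 had 170, 93.4, 62.2 and 62.7 CPM, and Col3a1 had 242, 126, 108 and 114. In VDS-F1 these 2 genes had at most 29.1 and 60.9 CPM. Sums without them were not formed. Macrophage markers (8 genes) summed to 135 to 350 CPM and 193 to 357, with 2 of 8 lower, and endothelial markers (8 genes) to 409 to 520 and 402 to 576, with 2 lower and 1 higher. Lymphoid markers (7 genes, 3 tested) summed to 4.82 to 31.0 CPM in VDD-F1 and 8.16 to 12.9 in VDS-F1. The hepatocyte markers summed to 109754 to 128429 CPM in VDD-F1 and 96537 to 118685 in VDS-F1, and 1 of 9, Hnf4a, was lower at an unadjusted p under 0.05. No gene of these 5 cell type lists was at 0 in all libraries. The part of these cells in the values of the 10 genes was not tested.

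Synthesis of bile acids follows the time of day, and several of these genes are known clock outputs. Nr1d1 (Rev-erb alpha), a repressor of the clock, had 132 to 170 CPM in VDD1 to VDD3 and 51.1 to 57.2 in VDD4 to VDD6. In VDS-F1 it had 200 to 227 CPM in VDS3 to VDS5 and 49.8 to 58.1 in VDS1, VDS2 and VDS6. Over all 12 mice 3 of each diet were in either range, but within the recorded set Nr1d1 followed the diet, low in all 3 VDD-F1 mice and high in 3 of the 4 VDS-F1 mice (log2-fold change -1.67, adjusted p = 0.0107, edgeR). Dbp, an activator of Cyp7a1, had 100 CPM in VDD2, 82.1 in VDS5 and at most 28.0 in the others. In the set of mice with a recorded weight its log2-fold change was -3.64 (adjusted p = 0.0225, edgeR) and in the other set it was 3.14, with an interaction p of 0.00103 that did not pass adjustment (adjusted p = 0.175). Nr1d1 and Dbp are named after their values were seen. All 15 clock genes were tested, 0 were DEGs over all mice, 3 were lower and 0 higher at an unadjusted p under 0.05 (6.29% and 9.55% of all genes), 14 had a log2-fold change below 0 (49.2% of all genes) and the median was -0.38. In the mice with a recorded weight 6 of the 15 were DEGs, all lower in VDD-F1, where 4.33% of all genes were. Per2 and Cry2 had the smallest p-values between the sets with diet in the model, at log2 differences of -0.79 (adjusted p = 0.136, edgeR) and -0.35 (adjusted p = 0.144, edgeR), lower in the recorded set. Neither passed. The hour at which the livers were taken was not given in the sources used here, and its part in these values was not tested.

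**Figure D5:**
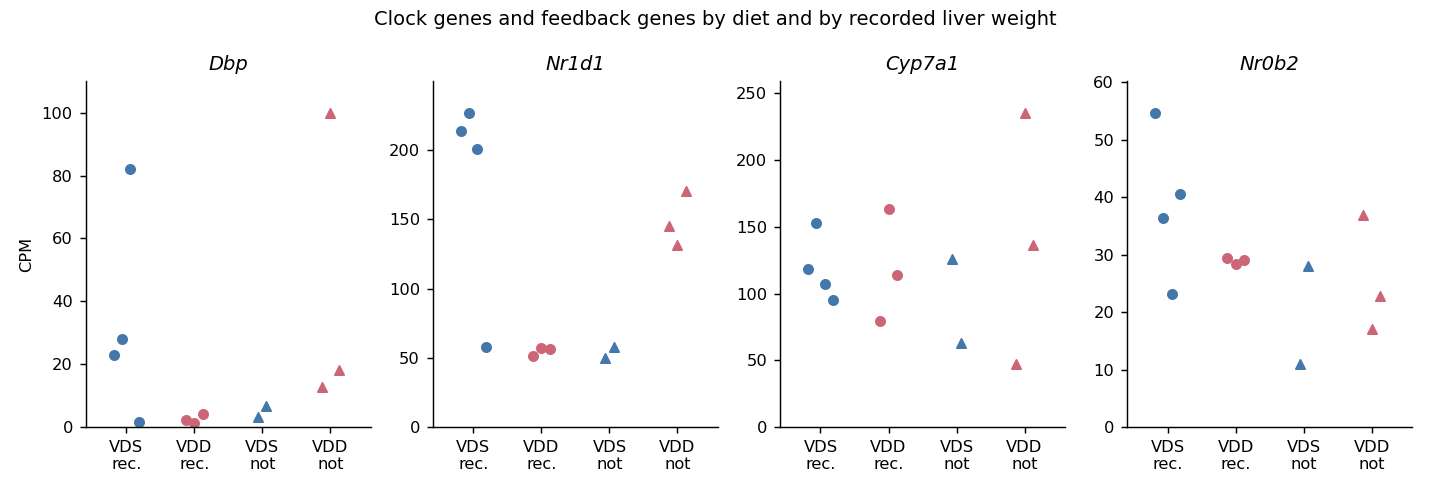
CPM of Dbp, Nr1d1, Cyp7a1 and Nr0b2 in each liver, by diet (VDS-F1 blue, VDD-F1 red) and by whether a liver weight was recorded (rec., circles) or not (not, triangles). Nr1d1 lies between 49.8 and 58.1 CPM in 6 mice and between 132 and 227 in the other 6, with 3 mice of each diet in both ranges.

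With the log2 CPM of Nr1d1 added to the model as a covariate, an alternative chosen after the data were seen, 0 of the 10 genes were DEGs (0.0241% of all genes) and 4 had an unadjusted p under 0.05 (15.2% of all genes) by edgeR. Cyp7b1 then had a log2-fold change of -1.63 (adjusted p = 0.118, edgeR), close to -1.68 without it. All 10 genes kept the sign of their difference. With 3 mice of each diet in both ranges of Nr1d1, this covariate could change the diet differences only a little. The fit therefore cannot decide the part of Nr1d1 or of the hour in them.

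The same covariate within the 7 mice with a recorded weight, also chosen after the data were seen, left 3 of the 10 genes as DEGs, where 2.92% of all genes were. Cyp8b1 had a log2-fold change of -1.52 (adjusted p = 0.0026), Slc10a1 of -1.12 (adjusted p = 0.0004) and Cyp7b1 of -1.28 (adjusted p = 0.0396), by edgeR. Of the 10, 4 had an unadjusted p under 0.05, against 22.6% of all genes and 8 of the 10 without the covariate. Nr1h4 went from -0.62 to -0.45 (adjusted p = 0.286, edgeR) and no longer passed. In this fit VDS6 was the only VDS-F1 mouse of this set in the low range of Nr1d1.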

How the data were processed

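Per the labels, total RNA from 12 livers (6 VDD-F1, 6 VDS-F1) was depleted of ribosomal RNA, made into libraries and sequenced. The authors trimmed the reads, aligned them to mm10 with STAR and deposited raw fragment counts per gene (GENCODE M15), unnormalised, with unstranded and strand columns. The paper does not name the column. The reverse-strand count was used, which held 92.7% to 95.8% of the stranded counts. Lines without a gene (2.52% to 11.1% of fragments with no feature, and unmapped, multimapping and ambiguous ones) stayed out of library sizes.

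Positions and symbols came from GENCODE M21, also on GRCm38, which matched 52489 of 52636 genes. The hepatocyte list had 9 of 10 symbols. Genes averaging 12 or more counts were normalised (TMM) and tested with edgeR 4.0.16 (quasi-likelihood, legacy form) in R 4.3.3, with Benjamini-Hochberg adjustment over all genes, where the study used DESeq2. Standard errors are the absolute log2-fold change divided by the square root of F. Likeness used log2 CPM with a prior count of 2. Alternatives were DESeq2 1.42.0, voom in limma 3.58.1, other filters, scaling, strand, covariates, sets of mice and each library left out. Tables were read in Python 3.11.15 with pandas 2.3.3 and NumPy 2.4.6, and drawn with matplotlib 3.10.9. Mouse numbers in the histology picture were taken to be those of the labels.

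Genes named are the 10 members, up to 3 genes per other list with the smallest p under 0.05 (the set term for clock genes), and the 3 genes most like each of 4 members. Cell type markers are given as sums and counts, and only Hnf4a, Col1a1 and Col3a1 with values of their own. Other names were chosen after their values were seen. A gene that the rule names among the regulators is not reported here. Members and lists were chosen with earlier results of these data known. The histology and qRT-PCR were not analysed here.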

Additional observations from a re-analysis of the deposited data

How the results depend on the processing

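Over 25 alternatives, Cyp8b1, Cyp27a1, Cyp7b1, Nr1h4, Abcb11, Slc10a1 and Baat kept the sign of their difference. Cyp7a1 reversed to -0.029 with voom and to -0.033 without VDD2 (0.40 without VDD1), Nr0b2 reversed to 0.39 and Fgfr4 to -0.094 in the mice without a recorded weight (log2-fold changes). Cyp7b1 was called in 7 alternatives, Cyp8b1 and Slc10a1 in 2 each, and the lowest adjusted p over the alternatives was 0.413 for Cyp7a1. The cause of these changes was not tested.

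The number of the 10 genes called moved from 0 to 1 with DESeq2, voom, no filter on low counts and the replicate block, and to 3 in the mice with a recorded weight, alone or with Nr1d1 as a covariate. The number at an unadjusted p under 0.05 moved from 4 to 8 with voom, to 7 with no filter, to 7 with the set as a covariate, to 7 with the replicate block, to 8 in the mice with and to 0 in the mice without a recorded weight. All genes called moved from 5 to 253 with DESeq2, 252 with voom, 17 with the newer edgeR form, 70 with no filter, 21 with the set as a covariate, 17 with the replicate block, 3 with Nr1d1 as a covariate, 361 with that covariate in the mice with a recorded weight, 536 in the mice with and 0 in the mice without a recorded weight. Genes called in the 3 pathway lists moved from 0 to 1 with voom, to 5 in the mice with a recorded weight (Cyp46a1 included) and to 4 there with Nr1d1 as a covariate.

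Leaving out 1 library at a time gave 0 to 1 of the 10 genes called (1 without VDD3), 3 to 7 at an unadjusted p under 0.05 (7 without VDD1), 0 to 2 pathway genes (2 without VDD1, 1 without VDD3) and 0 to 260 of all genes. Of all genes, 260 were called without VDD1, 94 without VDD3, 12 without VDS2, 1 without VDS6 and 0 without VDD4, VDD5, VDD6, VDS3, VDS4 or VDS5.

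Replicate numbers mark different mice. Deviations of same-numbered mice had correlations of -0.076 to 0.10 and 0 of 6 VDD-F1 mice correlated best with their own number. No pairing by number was seen, though a check on single mice cannot exclude it. Under the replicate block Cyp7b1 had a log2-fold change of -1.92 (adjusted p = 0.0444 from edgeR).

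The SE of Nr0b2 (0.29) and of Cyp7a1 (0.31) exceeded the size of their log2 differences.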
